A study of Mus musculus with 12 samples.

Results

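The mouse MCP cluster on chromosome 11 holds genes of the monocyte chemoattractant proteins and of eotaxin, secreted CC chemokines that share an adjacent pair of cysteines. Its members were taken by symbol as Ccl2, Ccl7, Ccl8, Ccl11 and Ccl12, 5 of the 22243 genes with values in the deposited table, each represented by 1 transcript. RNA sequencing covered bone marrow-derived macrophages (BM-Mɸs) from 6 LysMCre/ErbB4-floxxed (KO) mice and 6 ErbB4-floxxed (WT) littermates on the C57Bl/6 background, 1 of each genotype from 6 litters. All mice carried the floxed ErbB4 alleles, and the Cre recombinase of LysMCre, inserted in the lysozyme gene Lyz2, is active in myeloid cells. All 12 cultures were grown in medium with M-CSF, M1-activated, first over 16 h with IFN-γ at 100 U/ml and afterwards over 6 h with LPS at 100 ng/ml. No unstimulated culture is among these samples, and neither the age nor the sex of the mice is on the sample labels. Groups are called ErbB4myeKO and ErbB4FF here, and levels are given in TPM, an abundance scaled for transcript length and library total.

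CC chemokines draw leukocytes along a gradient by binding receptors with a transmembrane bundle that couples to G proteins. Ccl2 and Ccl12 signal mainly through Ccr2, the receptor that brings monocytes out of the marrow and into inflamed tissue. Ccl7 binds Ccr1, Ccr2 and Ccr3, mouse Ccl8 acts through Ccr8, and Ccl11 recruits eosinophils through Ccr3. Macrophages make several of these ligands after sensing LPS or interferon, whereas Ccl11 is known mainly from fibroblasts and epithelium.

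All 5 genes lie on the plus strand of chromosome 11 (GRCm38, GENCODE M21) within 81229 bases, and each has 3 exons. Their order is Ccl2 (ENSMUSG00000035385, 82035571 to 82037453), Ccl7 (ENSMUSG00000035373, 82045712 to 82047525), Ccl11 (ENSMUSG00000020676, 82057823 to 82062955), Ccl12 (ENSMUSG00000035352, 82101845 to 82103400) and Ccl8 (ENSMUSG00000009185, 82115185 to 82116799). The coding stretch of 48 bases around the paired cysteines is shown for the 5 genes because this pair defines the CC family and because the stretch shows how far the paralogs differ, which decides whether short reads can be told apart. Capitals mark the 2 cysteine codons, which lie in exon 2 of each gene, and the sequences are read from the GENCODE M21 transcripts.
Ccl2: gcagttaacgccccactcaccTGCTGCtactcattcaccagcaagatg
Ccl7: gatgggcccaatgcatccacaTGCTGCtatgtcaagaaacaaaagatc
Ccl8: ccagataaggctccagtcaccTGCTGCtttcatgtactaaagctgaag
Ccl11: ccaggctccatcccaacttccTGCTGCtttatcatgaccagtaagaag
Ccl12: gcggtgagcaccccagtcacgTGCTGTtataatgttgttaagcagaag
The cysteine pair was encoded at codons 34 and 35 in Ccl2 (chr11:82036506-82036511), 33 and 34 in Ccl7 and Ccl12, and 32 and 33 in Ccl8 and Ccl11. Ccl12 differed from the other four in using TGT for the second cysteine. Over aligned bases the coding sequences were between 64.2% and 70.5% identical, with Ccl8 and Ccl12 the closest pair. The coding sequence of Ccl2 was the longest, at 444 bases against 291 in Ccl7, Ccl8 and Ccl11 and 312 in Ccl12. None of the 31-mers of the Ccl2, Ccl7, Ccl8 and Ccl12 transcripts, the word length with which kallisto works by default, occurred in an annotated transcript of another gene (0 of 783, 771, 481 and 507), and 1 of 1052 did for Ccl11. Gm17268, on the opposite strand, overlaps Ccl2 and was listed at 0 in all libraries.

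Before the levels, the labels were checked against the data. Erbb4 averaged 0.583 TPM (SD 0.242, n = 6) in libraries labelled ErbB4myeKO and 0.450 TPM (SD 0.132, n = 6) in those labelled ErbB4FF, higher under the KO label in 4 of 6 litters, and TPM of a whole transcript do not show the floxed exon by itself. Lyz2 was lower in the library labelled ErbB4myeKO in litters 1 to 5 (log2 ratios from -1.20 to -0.81) and higher in litter 6 (1.43), so litter 6 stood apart from the others. In that litter Itgam (0.24), Fos (0.14), Ifnar1 (0.23) and Zfp36l2 (0.28) also had a sign opposite to the other 5. Other genes, among them Il12b (0.80), Tnf (0.10) and Fcgr1 (-0.70), had the same sign as in the others. Whether its 2 libraries carry each other's labels was not tested, the labels are used as deposited, and the genotype value of each member tested is also given without that litter. Macrophage markers were present in all libraries (Adgre1 between 662 and 1059.6 TPM). All 7 lymphocyte markers stayed below 1 TPM in every library, and 6 eosinophil and mast cell markers summed to at most 9.84 TPM. Sums were 5.43 to 19.99 TPM for 6 endothelial, 30.4 to 122 TPM for 7 dendritic cell and 9.28 to 105 TPM for 10 stromal markers. The Y-linked Ddx3y and Eif2s3y were listed at 0 in all 4 libraries of litters 5 and 6 and above 0 in the 8 others, so that littermates matched each other. The other Y-linked genes listed did not separate the libraries in this way. Kdm5d was above 0 in every library (lowest 0.202 TPM), and Uty was at 0 in 4 ErbB4myeKO and 3 ErbB4FF libraries. Genes above 0 TPM numbered 10214 to 12985, and TPM keep no read depth. Back from the natural log, sleuth's deposited mean of estimated counts came to 1467 counts for Ccl2, 810.03 for Ccl7, 426 for Ccl12 and 112 for Ccl8, pooled over all libraries. In bulk RNA, fewer cells that express a gene and less RNA per cell cannot be told apart.

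Among the members, Ccl2 was the most abundant transcript, Ccl7 and Ccl12 followed, Ccl8 was lower and Ccl11 was all but undetected. Ccl2 had a lowest, median and highest level of 130.1, 384 and 840 TPM in ErbB4FF libraries and of 97.8, 359 and 1035 TPM in ErbB4myeKO libraries. For Ccl7 these levels were 72.8, 239.995 and 526 TPM in ErbB4FF and 45.1, 181 and 581 TPM in ErbB4myeKO. Ccl12 stood at 106, 266 and 640.1 TPM in ErbB4FF and at 58.4, 167 and 466 TPM in ErbB4myeKO. The ranges of the genotypes overlapped for each of these genes.
Ccl8, the member with the widest range as a fold, stood at 21.8, 68.8 and 278 TPM in ErbB4FF and at 8.56, 32.5 and 436 TPM in ErbB4myeKO. Ccl11 was listed at 0 in 11 libraries and at 0.184 TPM in the ErbB4FF library of litter 1. Of the 5 other genes with values within 500 kb, the CC chemokine gene Ccl1, Asic2, 5530401A14Rik, Gm17268 and Tmem132e, each was listed at 0 in all 12 libraries. The 4 expressed chemokine genes were thus flanked, and in the case of Ccl11 interrupted, by genes at or near 0.

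**Figure D1:**
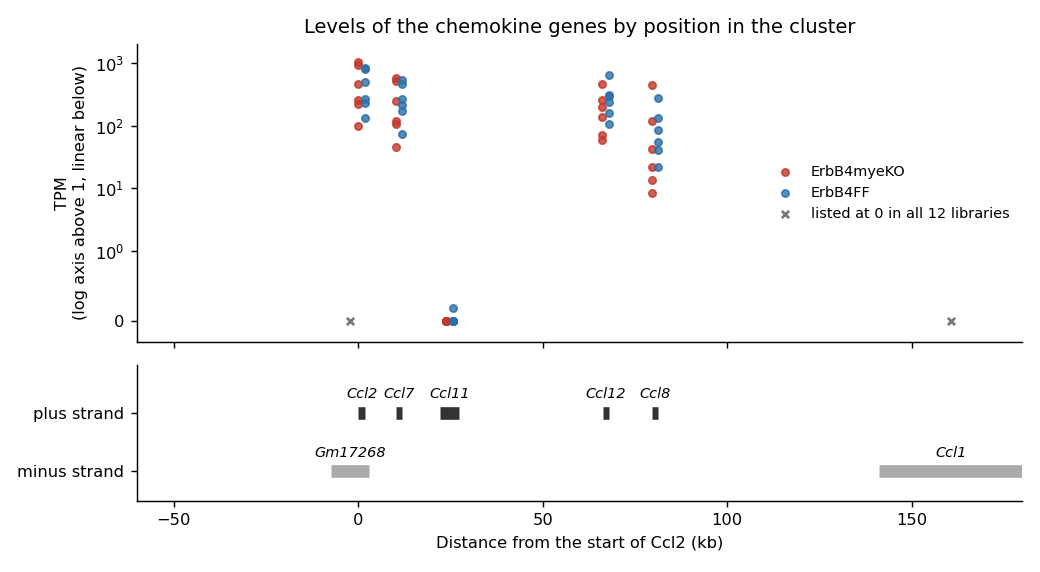
Level of each gene in each library (upper part, TPM, log axis above 1 and linear below) by its distance in kb from the start of Ccl2, over a map of the genes on both strands (lower part, members dark, other genes grey). Red points are ErbB4myeKO and blue points ErbB4FF libraries, crosses mark genes listed at 0 in all 12, and Ccl11 lies at or near 0 between 4 genes that reach at least 436 TPM.

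The order of neighbours in level was compared within libraries, with a two-sided exact permutation test over sign changes and Benjamini-Hochberg adjustment over the 8 comparisons made. Of these, 1 in each genotype set Ccl8 over Ccl11, and Ccl8 was higher in 6 of 6 libraries. With Ccl11 at or near 0 that outcome and its exact permutation p of 0.0312 were fixed in advance. Both comparisons lower the adjusted values of the other steps, which therefore carry little weight. In ErbB4myeKO, Ccl2 exceeded Ccl7 by 0.98 ± 0.22 on the log2(TPM + 0.5) scale (SD, n = 6; higher in 6 of 6 libraries; exact permutation p = 0.0312, adjusted 0.05, the smallest value this family reached). Ccl7 and Ccl12 were not separated there, with a log2 difference of 0.26 ± 0.81 (SD, n = 6; exact permutation p = 0.406). Ccl12 exceeded Ccl8 by 1.85 ± 1.06 (SD, n = 6; 6 of 6 libraries; exact permutation p = 0.0312, adjusted 0.05). Among ErbB4myeKO libraries both of these steps thus kept 1 order throughout, whereas Ccl7 and Ccl12 exchanged places between litters.
In ErbB4FF the means of Ccl12 and Ccl7 were 290.1 and 285 TPM, and their log2 difference of 0.07 ± 0.61 (SD, n = 6; exact permutation p = 0.781) was smaller than its spread. Ccl2 was above Ccl12 in 4 of 6 of these libraries (0.60 ± 0.77, SD, n = 6; exact permutation p = 0.125). Ccl7 was above Ccl8 in 6 of 6 (1.69 ± 0.61, SD, n = 6; exact permutation p = 0.0312, adjusted 0.05). Ccl2 was above Ccl7 in all 12 libraries of both genotypes, and whether the order differed between genotypes was not tested.

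Litter held a larger share of the variation in level than genotype for each member tested. The 6 litters take more degrees of freedom than genotype does, so the shares are not on an equal scale. In a split of the sum of squares of log2(TPM + 0.5), litter held 98.5% for Ccl2, 94.6% for Ccl7, 88.1% for Ccl8 and 78.4% for Ccl12, and genotype held 0.0157%, 2.17%, 5.45% and 11.7%. From the lowest to the highest of the 12 libraries Ccl2 spanned 10.6-fold, Ccl12 10.95-fold, Ccl7 12.9-fold and Ccl8 50.9-fold. Litter 3 held the lowest library of Ccl2, Ccl7 and Ccl8 in both genotypes.
Litters 5 and 6 were highest. Their 4 libraries lay at or above 812 TPM for Ccl2, 461 TPM for Ccl7 and 117 TPM for Ccl8, whereas the 8 libraries of litters 1 to 4 did not exceed 499, 269.7 and 83.6 TPM. For Ccl12 the 2 ranges overlapped (259 to 640.1 TPM against 58.4 to 302 TPM). These are the litters without Ddx3y and Eif2s3y signal, and their 10 neutrophil markers, of which S100a8 and S100a9 had the highest means, summed to between 153 and 371 TPM against 39.7 to 72.8 TPM in the other libraries. With 2 litters on 1 side, litter and sex cannot be told apart, and the part of neutrophil RNA in these levels was not tested.

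**Figure D2:**
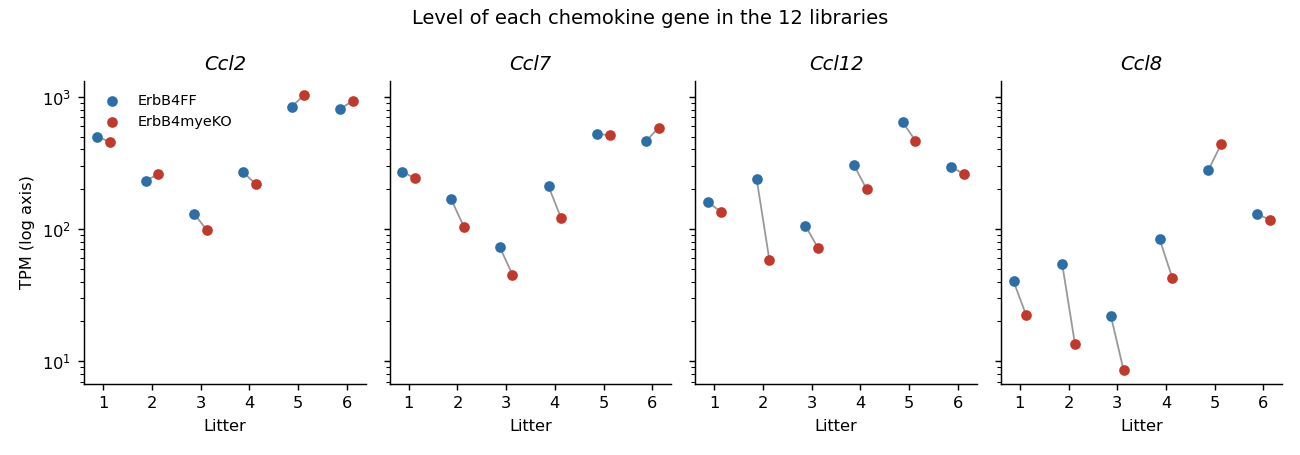
TPM (log axis) of Ccl2, Ccl7, Ccl12 and Ccl8 in each litter, with a line joining the ErbB4FF library (blue) to its ErbB4myeKO littermate (red). Red lies below blue in 6 of 6 litters for Ccl12, and Ccl2, Ccl7 and Ccl8 stand highest in litters 5 and 6.

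Whether macrophages from ErbB4myeKO mice express the MCP genes at another level was compared within litters. Ccl12 and Ccl8 had the lower mean levels relative to littermates, Ccl7 lay between, and Ccl2 was close to equal. No member passed an adjusted p of 0.05 in limma, fitted to 8780 genes with litter as a block, of which 0% passed (0 genes), and all differences below are therefore measurements without a call. An unadjusted p under 0.05 with a lower level in ErbB4myeKO was reached by 2 of the 4 members tested, against 4.38% of all genes tested (8.21% in either direction), and 4 of 4 members had a mean log2 ratio below 0, against 50.2% of all genes. The median log2 ratio of the 4 was -0.51, and that of all genes was -0.00068. Ccl11 did not reach the mean of 1 TPM needed for the test.

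Ccl12, a Ccr2 ligand found in mice, averaged 198 ± 152 TPM (SD, n = 6) in ErbB4myeKO and 290.1 ± 188 TPM (SD, n = 6) in ErbB4FF. Within litters 1 to 6 the log2 ratio of ErbB4myeKO to ErbB4FF was -0.24, -2.02, -0.56, -0.60, -0.46 and -0.18. It was below 0 in all 6, which 2.31% of the genes tested shared (2.51% were above 0 in all 6). The mean was -0.68 ± 0.68 (SD, n = 6 litters; exact permutation p = 0.0312, the smallest that 64 swaps within litters can give), and limma's standard error was 0.23 with an adjusted p of 0.603 (unadjusted 0.0197). This size rested in part on litter 2, without which the mean was -0.41, still below 0 in each litter, and without litter 6 it was -0.78. The permutation result needed all 6 litters, as 5 litters of 1 direction give an exact permutation p of 0.0625. In litter 2 Il12b, the gene of the p40 subunit of IL-12, had a log2 ratio of 3.40 and Fcgr1, the gene of a high-affinity IgG receptor, one of -2.20. In litter 4 these ratios were 2.43 and -1.15, beside a Ccl12 ratio of -0.60. The part of activation state in the Ccl12 ratios was not tested.

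Ccl8 had the largest mean log2 ratio in size among the members, -0.76 ± 0.91 (SD, n = 6 litters; exact permutation p = 0.0938; limma adjusted p = 0.603, standard error 0.31). The ratios in litters 1 to 6 were -0.84, -1.96, -1.30, -0.96, 0.65 and -0.15, so that the ErbB4myeKO library was the lower in 5 of 6 litters. In litter 5, where both libraries were highest, the order turned (436 against 278 TPM). For that reason the arithmetic means went the other way, 107 ± 166 TPM (SD, n = 6) in ErbB4myeKO and 101 ± 94.5 TPM (SD, n = 6) in ErbB4FF. Without litter 5 the mean log2 ratio was -1.04, and without litter 6 it was -0.88.

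Ccl7, which binds several receptors of monocytes and eosinophils, averaged 267 ± 226 TPM (SD, n = 6) in ErbB4myeKO and 285 ± 175 TPM (SD, n = 6) in ErbB4FF. Its log2 ratios in litters 1 to 6 were -0.15, -0.69, -0.68, -0.80, -0.04 and 0.33. The mean of -0.34 did not exceed the SD of 0.45 over 6 litters (exact permutation p = 0.156; limma adjusted p = 0.603), and 14.3% of all genes tested were likewise lower in at least 5 of 6 litters. Litter 6, which stood apart in Lyz2, held the one ratio above 0, and the mean without it was -0.47.

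Ccl2, the main Ccr2 ligand of activated macrophages, averaged 499.9 ± 393 TPM (SD, n = 6) in ErbB4myeKO and 463 ± 306 TPM (SD, n = 6) in ErbB4FF. The log2 ratios were -0.13, 0.17, -0.41, -0.30, 0.30 and 0.20 in litters 1 to 6, 3 below and 3 above 0. Their mean was -0.03 ± 0.29 (SD, n = 6 litters; exact permutation p = 0.844; limma adjusted p = 0.945). The 95% interval from limma ran from -0.28 to 0.22, which spans levels from 17.5% lower to 16.6% higher in ErbB4myeKO. The sign of this mean is not settled, as it turned to 0.05 without litter 3 and to 0.03 without litter 4, and it was -0.07 without litter 6.

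**Figure D3:**
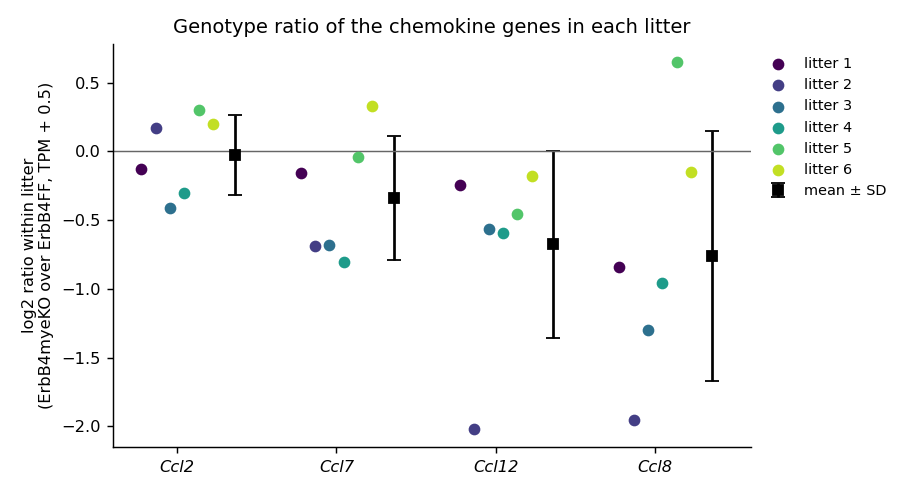
Log2 ratio of ErbB4myeKO to ErbB4FF (TPM + 0.5) within each litter (coloured points) for 4 members, with the mean and SD over 6 litters (black squares and bars). The points of Ccl12 all lie below 0, from -2.02 to -0.18, those of Ccl8 reach from -1.96 to 0.65, and those of Ccl2 lie on both sides of 0.

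The genes also differed in size of ratio, and these differences were tested within litters over the 10 pairs of members. Ccl2 exceeded Ccl12 in its log2 ratio by 0.65 ± 0.79 (SD, n = 6 litters), in 6 of 6 litters (exact permutation p = 0.0312, adjusted over the 10 pairs 0.234). The difference of Ccl2 and Ccl8 was 0.73 ± 0.81 (SD, n = 6 litters; 5 of 6 litters; exact permutation p = 0.0625, adjusted 0.234). That of Ccl2 and Ccl7 was 0.31 ± 0.35 (SD, n = 6 litters; 5 of 6 litters; exact permutation p = 0.0938, adjusted 0.234). Ccl8 and Ccl12 differed by -0.08 ± 0.67 (SD, n = 6 litters; exact permutation p = 0.875). No pair passed the adjusted threshold. With 6 litters most of the 10 pairs would have to reach the smallest p of 0.0312 for any to pass, and 4 pairs hold Ccl11, at 0 in 11 libraries, so the result says little about whether the ratios are equal. Without litter 2 the differences of Ccl2 from Ccl12, Ccl8 and Ccl7 were 0.34, 0.45 and 0.20, and that of Ccl8 and Ccl12 turned to 0.02 without litter 1 and to 0.05 without litter 3.
In composition, Ccl2 made up a median of 46.6% of the members' summed TPM in ErbB4myeKO libraries (37.6% to 59.6%) and of 38.1% in ErbB4FF libraries (31.2% to 51.5%). Ccl12 made up a median of 17.4% (13.4% to 34.3%) in ErbB4myeKO and of 30.04% (16.5% to 34.9%) in ErbB4FF. Within litters its share differed by less than 1 percentage point in litters 1, 3 and 4 and by -21.1, -9.00 and -3.60 points (ErbB4myeKO minus ErbB4FF) in litters 2, 5 and 6, and its mean shares were 21.4% and 27.2%. Ccl7 held a similar share in all libraries, between 20.2% and 30.8%.

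Over the 12 libraries the members fell into a Ccl2 and Ccl7 pair and a Ccl8 and Ccl12 pair. Pearson's r of log2(TPM + 0.5) was 0.976 for Ccl2 and Ccl7, which were each other's most similar gene among 8780. It was 0.954 for Ccl8 and Ccl12. Across the pairs it was 0.867 for Ccl7 and Ccl8, 0.815 for Ccl2 and Ccl8, 0.810 for Ccl7 and Ccl12 and 0.715 for Ccl2 and Ccl12. Littermates share a litter, so these values describe 12 libraries from 6 litters and carry no p. After Ccl7, the genes most like Ccl2 were Mcm5 (r = 0.965) and Mras (r = 0.964), and after Ccl2 those most like Ccl7 were Mras (r = 0.968) and Acads (r = 0.968). Mcm5 encodes a subunit of the replicative helicase, Mras a Ras-related GTPase and Acads a mitochondrial acyl-CoA dehydrogenase, and their mean levels were 4.92, 2.95 and 7.91 TPM.
Zfp362 (r = 0.976), Cd151 (r = 0.969) and Fez2 (r = 0.968) were most like Ccl8, and Gmnn (r = 0.967) and Fez2 (r = 0.966) were among the 3 most like Ccl12. Cd151 is a tetraspanin and Gmnn is geminin, an inhibitor of replication licensing. Fez2 was shared by both lists.

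For this second pair the upstream sequence of 250 bases before the annotated start is shown, from the RefSeq promoter table (GRCm38.p6, plus strand). Of the 5 members, only these 2 matched the table, so they were not chosen by their ratios or profiles. Capitals mark the TATA box, searched as TATAAAA.
Ccl12, chr11:82101595-82101844: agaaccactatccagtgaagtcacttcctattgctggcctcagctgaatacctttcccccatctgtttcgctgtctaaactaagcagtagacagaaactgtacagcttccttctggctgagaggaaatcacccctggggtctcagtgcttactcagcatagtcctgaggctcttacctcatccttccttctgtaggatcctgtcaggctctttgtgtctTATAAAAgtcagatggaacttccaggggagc
Ccl8, chr11:82114935-82115184: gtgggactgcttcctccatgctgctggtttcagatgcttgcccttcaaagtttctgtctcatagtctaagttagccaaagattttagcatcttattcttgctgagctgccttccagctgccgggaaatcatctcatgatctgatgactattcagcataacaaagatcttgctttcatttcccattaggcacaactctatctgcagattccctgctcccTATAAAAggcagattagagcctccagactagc
The box began 31 bases before the start in Ccl12 and 32 bases before it in Ccl8, on the plus strand, and 5.48% of 32851 promoters of 300 bases hold these letters on either strand. Over the 281 aligned bases of the 300-base windows the promoters were 62.3% identical. Searched on both strands of these windows, the AP-1 motif TGANTCA (in 7.81% of all promoters), the interferon-γ-activated site TTCNNNGAA (8.30%), the interferon-stimulated response element, searched as GAAA followed after any 2 bases by GAAA (3.44%), and the NF-κB consensus (4.51%) had no match in either promoter, so no match overlapped the TATA box. The absence says only that these letters are not in these windows.

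Receptors of the MCP ligands are the way in which the chemokines act back on macrophages. Of 5 receptors and scavengers on the list, which omits a gene not reported here, 3 were tested, all with a mean log2 ratio below 0 (median -0.29), 1 was lower at an unadjusted p under 0.05, and 0 passed the adjusted threshold. Of all genes tested, 50.2% had a mean below 0 and 4.38% were lower at that p. Ccr2 was 5.62 ± 2.36 TPM (SD, n = 6) in ErbB4myeKO and 8.39 ± 4.97 TPM (SD, n = 6) in ErbB4FF. The mean log2 ratio of -0.45 came with an SD of 0.45 over 6 litters, each of which lay below 0, as for 2.31% of all genes (exact permutation p = 0.0312; limma adjusted p = 0.603). Litter 2 held the lowest ratio (-1.32), and the mean was -0.27 without it.
Ccr1 and Ccr3 averaged 6.55 and 7.35 TPM, with log2 ratios of -0.29 ± 0.42 and -0.29 ± 0.54 (SD, n = 6 litters). With each litter left out these ranged from -0.40 to -0.17 for Ccr1 and from -0.39 to -0.12 for Ccr3. The scavenging receptor gene Ackr2 was listed at 0 in all libraries and Ackr1 above 0 in 1. Qpct and Qpctl, whose enzymes cyclize the N-terminal glutamine of MCP proteins, averaged 15.1 and 4.38 TPM and had log2 ratios of 0.19 ± 0.38 and -0.31 ± 0.38 (SD, n = 6 litters). With each litter left out they ranged from 0.08 to 0.29 and from -0.37 to -0.17.

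Of 11 other CC chemokine genes listed, 8 were tested, with a median log2 ratio of 0.06, 3 below and 5 above 0, and 2, Ccl20 and Ccl22, were higher at an unadjusted p under 0.05, against 3.83% of all genes. Ccl5, Ccl3 and Ccl4 were the most abundant at 15022, 5098 and 1689 TPM on average. Their log2 ratios were -0.06 ± 0.09, 0.48 ± 0.87 and -0.15 ± 0.21 (SD, n = 6 litters), each with an adjusted p of at least 0.639 in limma. With each litter left out they ranged from -0.09 to -0.03, from 0.22 (without litter 2) to 0.63 and from -0.19 to -0.09. Ccl22, which binds Ccr4, was above its littermate in 5 of 6 litters (mean log2 ratio 0.41, SD 0.46; exact permutation p = 0.0938; limma adjusted p = 0.603). Ccl20, the ligand of Ccr6, was listed at 0 in 5 of 6 ErbB4FF libraries and reached 8.404 TPM in ErbB4myeKO. It passed the filter of 1 TPM through its ErbB4myeKO mean of 2.86 TPM alone, so that among the genes tested it had to be higher there, and its count is no support for a difference. Without Ccl20, 3 of the other genes tested lay below and 4 above 0, with a median of 0.03.

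Among 12 genes of interferon signaling, 3 had an unadjusted p under 0.05, all lower in ErbB4myeKO (Ifngr2, Stat2 and Irf7; 4.38% of all genes tested), 0 were higher (3.83% of all), and the median log2 ratio was -0.04. Ifngr2, a subunit of the IFN-γ receptor, was 97.9 ± 16.3 TPM (SD, n = 6) against 112 ± 18.9 TPM (SD, n = 6), and each of the 6 litters had a ratio below 0, as for 2.31% of all genes (mean log2 ratio -0.20 with an SD of 0.10; exact permutation p = 0.0312; limma adjusted p = 0.603). The transcription factor genes Irf8, Irf7 and Irf1, the most abundant of the list, had log2 ratios of 0.02 ± 0.21, -0.36 ± 0.43 and -0.05 ± 0.13 (SD, n = 6 litters), and that of Irf7 was -0.23 without litter 2.
The 12 genes of NF-κB, AP-1 and C/EBPβ had a median log2 ratio of -0.01. Of these 1, Fos, was lower at an unadjusted p under 0.05, against 4.38% of all genes. Its log2 ratio was -0.54 ± 0.38 (SD, n = 6 litters; limma adjusted p = 0.603), below 0 in 5 of 6 litters and above 0 in litter 6. Nfkbia, Nfkbib and Nfkb2 were the most abundant, with log2 ratios of -0.00 ± 0.27, 0.06 ± 0.38 and -0.03 ± 0.26 (SD, n = 6 litters). Of 7 regulators of chemokine mRNA decay, 0 had an unadjusted p under 0.05 (median log2 ratio -0.02). The mean log2 ratios were -0.14 for Zfp36, -0.05 for Zfp36l1, -0.17 for Zfp36l2, 0.12 for Elavl1, -0.02 for Khsrp and 0.25 for Rc3h1, RNA-binding proteins that shorten or lengthen the life of mRNAs. With each litter left out, Zfp36l1 ranged from -0.23 to 0.07 and Khsrp from -0.07 to 0.07, so their signs are not settled. Zfp36 ranged from -0.28 to -0.03, and Zfp36l2, Elavl1 and Rc3h1 also kept their signs. Zc3h12a, the gene of the endonuclease Regnase-1, was 96.1 ± 16.0 TPM (SD, n = 6) in ErbB4myeKO and 96.7 ± 21.5 TPM (SD, n = 6) in ErbB4FF. Across these lists of regulators 0 genes passed the adjusted threshold.

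**Figure D4:**
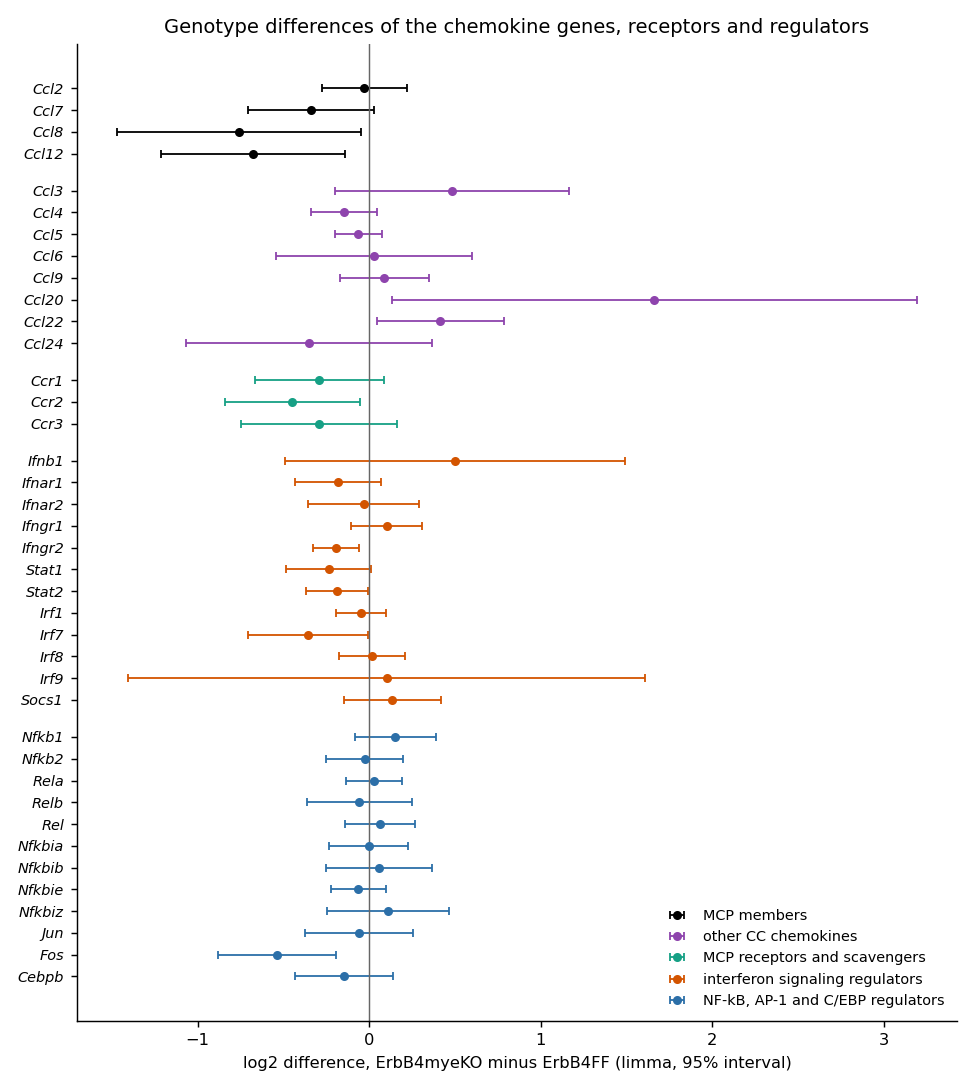
Log2 difference (ErbB4myeKO minus ErbB4FF, limma with litter as a block) and its 95% interval for the tested MCP genes, other CC chemokines, receptors and regulators, coloured by list. Among MCP genes and receptors the intervals of Ccl8, Ccl12 and Ccr2 lie below 0 before adjustment, that of Ccl2 spans 0, and none of the differences has an adjusted p under 0.05.

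Markers of activation and of other cells were set beside the members. Of 8 M1 markers, 2 were higher and 1 lower in ErbB4myeKO at an unadjusted p under 0.05 (3.83% and 4.38% of all genes), and 5 had a mean log2 ratio above 0 (median 0.36). Their summed level had a median of 18413 TPM in ErbB4myeKO (9620 to 32979) and of 9432 TPM in ErbB4FF (8402 to 29641), and was higher in ErbB4myeKO in 5 of 6 litters. For Il12b the mean log2 ratio was 1.19 with an SD of 1.39 over 6 litters, all above 0 (0.75 without litter 2), and for Cxcl10, a chemokine induced by interferon, it was -0.18 with an SD of 0.12, all below 0 (exact permutation p = 0.0312 each). Of 7 macrophage markers, 4 had a mean log2 ratio below 0 and 3 above, with 1, Fcgr1, lower and 0 higher at an unadjusted p under 0.05. Mean log2 ratios were 0.01 for Adgre1, 0.05 for Csf1r, 0.14 for Mertk, -0.12 for Cd68, -0.20 for Itgam and -0.59 for Lyz2. Without litter 6 they were 0.09, 0.07, 0.07, -0.16, -0.29 and -0.99. Fcgr1 was 114 ± 68.1 TPM (SD, n = 6) in ErbB4myeKO and 212 ± 120 TPM (SD, n = 6) in ErbB4FF, and its log2 ratios (mean -0.86, SD 0.74 over 6 litters) were largest in size in litter 2, as for Ccl12 and Ccl8. The stromal markers, which would mark cells that make Ccl11, summed to a median of 59.6 TPM in ErbB4myeKO and 43.9 TPM in ErbB4FF. Their sum was higher in ErbB4myeKO in 4 of 6 litters. Of those tested, 6 of 6 had a mean log2 ratio above 0 (median 0.16; 50.2% of all genes lay below 0), 0 at an unadjusted p under 0.05. The 3 most abundant, Col1a2, Col1a1 and Pdgfrb, had log2 ratios of 0.07 ± 1.34, 0.14 ± 1.39 and 0.32 ± 0.45 (SD, n = 6 litters). Without litter 6 they were -0.11, -0.02 and 0.39, so the signs of Col1a2 and Col1a1 are not settled. Of 6 endothelial markers 2 were tested, Kdr with a mean log2 ratio of -0.14 and Pecam1 with -1.25. Pecam1 passed the filter of 1 TPM through its ErbB4FF mean of 2.17 TPM alone (0.917 TPM in ErbB4myeKO). Among the genes tested it thus had to be lower in ErbB4myeKO, and its value is no support for a difference. Of 10 neutrophil markers 4 were tested, 2 below and 2 above 0, with Camp at 0.45 and above 0 in 6 of 6 litters (limma unadjusted p = 0.0369). The 7 dendritic cell markers summed to a median of 64.9 TPM in ErbB4myeKO (44.4 to 122 TPM) and 44.6 TPM in ErbB4FF (30.4 to 93.8 TPM), and 3 of 3 tested had a mean log2 ratio above 0 (median 0.33, against -0.00068 for all genes), of which 1, Xcr1, was higher at an unadjusted p under 0.05 (3.83% of all genes) and 0 passed the adjusted threshold in limma. The part of these cells in the member levels was not tested.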

How the data were processed

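Single-ended reads of 75 bp were pseudoaligned by the authors with kallisto, and the deposited values are TPM of transcripts that APPRIS marks as principal. The mm10 build is named in the submitters' processing notes, and versions are not given in the sources used here. The authors also deposited sleuth's mean natural log of normalized estimated counts, used here for depth, and columns of their own comparison (test statistics, p-values, q-values and a log2 ratio), which were not used. Of 29213 lines, 405 repeated a transcript and were dropped, and TPM were summed per gene (22243 genes).

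Genes averaging 1 TPM or more (8780) entered limma 3.58.1 (R 4.3.3, trended eBayes) as log2(TPM + 0.5). Litter was a block, as the study adjusted for litter, and Benjamini-Hochberg adjustment over all genes. Sex is not on the labels. Single values were tested by two-sided exact permutation over 64 swaps within litters. Python 3.11.15 with numpy 2.4.6, pandas 2.3.3 and Biopython 1.88 was used. Pairing by litter comes from the series design, and littermates' deviations from group means correlated at 0.273 to 0.774. The fit was tested on simulated data.

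Genes named are the members, genes within 500 kb, genes of hand-written lists (all of lists of 7 or fewer, otherwise the 3 most abundant and those with an unadjusted p under 0.05 and 1 direction in 6 litters), and the 3 genes most correlated with each member. Ccl20, Ccl22, Stat2 and Fos, as single genes behind a count, and Ifnar1, for its ratio in litter 6, fall outside this rule. They were named after their values were seen. Many marker genes so selected are given as counts or sums only. A gene of the receptor list, left out of its counts, and a gene correlated with Ccl12 are not reported here. The members and lists were chosen with earlier results of these data known. Alternatives tried were pseudocounts of 0.1 and 1, no filter or at least 5 TPM, no replicate block, median-ratio rescaling, limma without trend, a covariate from 4 Y-linked genes, the highest transcript alone and each litter left out.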

Additional observations from a re-analysis of the deposited data

Results flagged for a closer look

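In 14 groups of 6 values (TPM of each member by genotype and its log2 ratios by litter), 5 had an end value standing apart by Dixon's ratio, where chance marks about 1 in 20 groups. For Ccl8 in ErbB4myeKO the library of litter 5 lay at 436 TPM, with the next at 117 TPM (ratio 0.745). The Ccl12 level in the ErbB4FF library of litter 5 was 640.1 TPM, with the next at 302 TPM (ratio 0.633). The log2 ratio of Ccl12 in litter 2 was -2.02, and those of the other litters lay between -0.60 and -0.18 (ratio 0.774). Ccl11 had 1 value above 0 in ErbB4FF, 0.184 TPM in litter 1, which gives a ratio of 1 for its level and 1 for its log2 ratios. Both come from the same library, and with 5 values at 0 the ratio is 1 by construction, so the chance rate does not apply to them.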

How the results depend on the processing

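Of 15 alternatives for each of Ccl7, Ccl8 and Ccl12, all kept the mean log2 ratio below 0 and the adjusted p above 0.05 (lowest 0.499), with ranges of -0.47 to -0.25 for Ccl7, -1.04 to -0.52 for Ccl8 and -0.78 to -0.41 for Ccl12. Ccl2 turned to 0.0490 without litter 3 and to 0.03 without litter 4 (range -0.0932 to 0.0490 with each litter left out). Without the replicate block, which ignores the pairing of littermates, the log2 ratios were the same, limma adjusted p-values of the members tested were 0.999928 or above, and genes with an unadjusted p under 0.05 numbered 75 in place of 721. With each litter left out these numbered 413 to 864, 413 without litter 2 and 458 without litter 4. Genes with an adjusted p under 0.05 numbered 0 to 1, the one being Igkv1-88 without litter 3, named after its values were seen. The exact permutation results of all members kept their side of 0.05 under both pseudocounts and rescaling. The order of levels and the differences between members kept theirs under both pseudocounts, and were not rescaled. With each litter left out, the difference of Ccl8 and Ccl12 ranged from -0.321 to 0.0477, turning without litters 1 and 3, and the step of Ccl12 over Ccl7 in ErbB4FF from -0.0183 to 0.240, turning without litters 2, 3 and 4. Ccl11 has no value under alternatives with a filter, and without the filter its log2 ratio was -0.08 (limma adjusted p = 0.977). Each member has 1 transcript, so taking the highest transcript alone changed only the other genes tested. It is therefore no check on the exact permutation results, the order of levels or the differences between members. TPM without counts limit statements on Ccl11 to its being listed at 0.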
